A study of Rattus norvegicus with 18 samples.

Results

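Nerve terminals release transmitter from vesicles, and the 42 genes described here code for the proteins that do so. They were listed by symbol: 14 genes of the vesicle and its cargo and 7 synaptotagmin and Doc2 genes, called calcium sensors here. The rest were 9 genes of the SNARE fusion complex and its regulators, 7 of the active zone and 5 of endocytosis. Whether each synaptotagmin and Doc2 protein binds calcium was not examined. Of the 42 genes, 40 had a probe set named for them in the platform annotation, out of 14217 genes with a named probe set. Each gene is represented by its brightest probe set, and 36 genes passed a filter on low signals that kept 10294 genes in all. Erc2 and Doc2a had no named probe set here, and Syn3, Syngr1, Sv2c and Syt7 were too dim to be tested.

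Male Sprague-Dawley rats with implanted electrodes for recording brain and muscle activity were kept in 3 sleep states. Control rats were left in their home cages, the deprived group was kept from paradoxical (rapid eye movement) sleep for 78 h by the flowerpot method, and recovery rats had 72 h of the same deprivation followed by 6 h in which they could sleep. In that method a rat stands on a small platform over water and wakes when its muscles relax. Right-hemisphere neocortex and hippocampal formation were dissected, and the RNA of 6 rats at a time was combined, in 2 sets of rats per state. This gave 12 pools and 18 Affymetrix arrays, n = 2 pools for each structure and state (6 groups), since set 1 was pooled and hybridised on 2 arrays and set 2 on 1. Standing on platforms also restricts and stresses the animal, which home cage controls do not share. Age was not given, and rats of 1 pool cannot be told apart.

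A vesicle is filled by transporters in its membrane, held near the plasma membrane by synapsins and Rab3 proteins, and primed at the active zone by RIM and Munc13 proteins. Calcium entering the terminal binds synaptotagmins, which let the SNARE proteins of the vesicle and the plasma membrane zip together while complexins hold or help them. NSF and its SNAP adaptors then pull the SNARE complex apart, and dynamin, amphiphysin, endophilin, synaptojanin and clathrin adaptors take the vesicle membrane back. In cortex and hippocampus most terminals release glutamate and a minority release GABA.

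Promoters are shown for the members with the largest called differences between the structures in each direction that the promoter table held: Stx1a and Rab3b, lower in the hippocampal formation, and Cplx2 and Napa, higher there. Each runs 5′ to 3′ on the gene's strand from 250 bases before to 50 bases after the annotated start (RefSeq, build GRCr8). Capitals mark matches on either strand to GGGCGG (GC box, bound by Sp1-type factors), TGACG (core of the cAMP response element) and CACGTG (E-box). Stx1a lies at chr12:27306422-27306721, minus strand, Rab3b at chr5:128858841-128859140, plus strand, Cplx2 at chr17:10236704-10237003, minus strand and Napa at chr1:85915185-85915484, plus strand.
Stx1a: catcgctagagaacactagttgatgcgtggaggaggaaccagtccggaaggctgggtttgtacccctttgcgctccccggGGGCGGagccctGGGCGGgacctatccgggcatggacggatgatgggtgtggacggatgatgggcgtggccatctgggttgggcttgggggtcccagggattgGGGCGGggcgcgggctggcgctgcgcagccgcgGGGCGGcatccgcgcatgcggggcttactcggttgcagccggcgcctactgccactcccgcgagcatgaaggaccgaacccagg
Rab3b: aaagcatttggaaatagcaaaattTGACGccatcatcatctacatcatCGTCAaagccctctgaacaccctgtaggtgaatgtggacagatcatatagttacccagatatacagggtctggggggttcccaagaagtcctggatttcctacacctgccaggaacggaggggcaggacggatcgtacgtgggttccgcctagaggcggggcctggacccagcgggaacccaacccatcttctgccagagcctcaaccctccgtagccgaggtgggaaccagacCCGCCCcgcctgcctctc
Cplx2: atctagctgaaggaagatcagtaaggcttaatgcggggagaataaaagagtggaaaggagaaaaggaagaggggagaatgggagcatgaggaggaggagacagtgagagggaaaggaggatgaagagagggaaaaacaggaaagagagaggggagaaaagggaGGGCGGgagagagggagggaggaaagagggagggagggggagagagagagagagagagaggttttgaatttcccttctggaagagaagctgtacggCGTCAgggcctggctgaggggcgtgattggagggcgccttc
Napa: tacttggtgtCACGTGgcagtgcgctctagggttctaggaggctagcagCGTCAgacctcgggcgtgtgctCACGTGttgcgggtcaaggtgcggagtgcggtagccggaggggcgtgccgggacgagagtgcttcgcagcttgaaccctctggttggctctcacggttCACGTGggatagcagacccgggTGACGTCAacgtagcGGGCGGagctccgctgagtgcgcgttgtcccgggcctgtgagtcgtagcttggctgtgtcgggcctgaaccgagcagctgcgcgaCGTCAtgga

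The Stx1a window held 4 GC boxes and no TGACG or CACGTG, while the Napa window held 1 GC box, 4 matches to TGACG and 3 to CACGTG. A pair of the TGACG matches in Napa overlap on opposite strands. The Rab3b window held 1 GC box and 2 matches to TGACG, and the Cplx2 window held 1 of each. Of the 42 genes, 33 had a promoter in the table. Doc2a, Doc2b, Rims2, Snap25, Snap91, Syn3, Syngr1, Syt5 and Syt7 did not. For each of the 33 members 1 promoter was used, while the 33365 promoters compared were all distinct sequences of any gene, with no limit of 1 per gene. All shares given here therefore compare unlike sets. GGGCGG was found in 26 of the 33, against 33.1% of all 33365 promoters of the same length, and TGACG in 15 of 33 against 21.2%. CACGTG was found in 2 of 33 (Napa and Nsf) against 6.4% of all. The pieces of the RE1 element, the site of the neuronal repressor REST, were found in 7 of 33 for CAGCACC and in 5 of 33 for GGACAGC, against 6.8% and 6.6% of all. TATAAA was found in 0 of 33 members and in 14.2% of all promoters. Among the called members with a promoter, GGGCGG was in 3 of 3 that were higher and 6 of 7 that were lower in the hippocampal formation. A match is a description of letters and shows no binding.

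The pools separated by structure on the first principal component, and the hippocampal pools of set 2 (0.2995 to 10.01) lay between the neocortical pools (-26.35 to -20.71) and the hippocampal pools of set 1 (37.94 to 46.57). Differences of the members called between the structures are therefore also given for each set of rats. Most other structure differences are given over both sets only. Markers of hippocampal neurons were higher in the hippocampal formation in 7 of 8 tested, led by Fibcd1 (3.19) and Pkp2 (2.42) on the log2 scale. Markers of neocortical neurons were lower there in 6 of 9, led by Foxp2 (-3.06) and Lamp5 (-1.62). Striatal markers were lower in 8 of 8, led by Adora2a (-3.02) and Drd2 (-2.22), and meningeal ones in 5 of 7 (2 higher), led by Col3a1 (-1.60) and Col1a2 (-1.42). The summed signal of the 8 striatal markers was 1788 to 2324 in neocortical and 672 to 899 in hippocampal pools. Of 12 pan-neuronal markers 1 was higher (Stmn2, 0.22) and 2 were lower (Elavl4, -0.47, and Gap43, -0.34), with summed signals of 14068 to 15267 in neocortical and 13359 to 14654 in hippocampal pools. Among glial lists, 2 of 11 oligodendrocyte markers (Mobp, 0.24, and Cnp, 0.19) and 2 of 9 astrocyte markers (Gfap, 0.48, and Gja1, 0.22) were higher and 0 of 7 microglial ones were called. Of the remaining lists, 1 of 6 thalamic markers was higher and 2 lower (largest Rora, -0.65, and Calb2, 0.52), 2 of 7 subicular and entorhinal ones were higher and 1 lower (largest Nts, 3.05, and Bcl11b, 0.62), and 0 of 2 choroid plexus ones were called. Fibcd1, Foxp2, Adora2a and Drd2 passed the filter only through the structure where they are high, so their values are descriptions. The counts above include them. Without these 4 and Olig2, also under the filter level in 1 structure, 40 of 87 markers were called (46%), against 19.5% of probe sets on the same footing. Over all probe sets 9.4% were called higher and 10.5% lower. The part of these cell types in the results below was not tested. In RNA of whole tissue, fewer cells of a type and less RNA per cell cannot be told apart.

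Comparing the structures within the same rats, 11 of the 36 tested genes were called (limma, Benjamini-Hochberg adjusted p under 0.05 over 18625 probe sets): 4 were higher and 7 lower in the hippocampal formation. Across all probe sets 19.9% were called, 9.4% higher and 10.5% lower, and the members' counts are to be read against that background. Doc2b, 1 of the 4, passed the filter only through its hippocampal signals, so its call is no support; without probe sets of that kind, a count added after the data were seen, 10 of 35 members were called (3 higher, 7 lower), against 19.5% of 18030 probe sets. The median log2 difference of the 36 members was -0.00073, against -0.015 over all probe sets. The pools of the 2 structures did not overlap for 8 members, 3 higher (Doc2b among them) and 5 lower, and for 13.5% of all probe sets. With the set of rats as a block, 21 members (10 higher, 11 lower) and 43% of probe sets were called, the 11 among them. The direction was the same in both sets of rats for 27 of the 36 and for 67.3% of all probe sets.

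**Figure D1:**
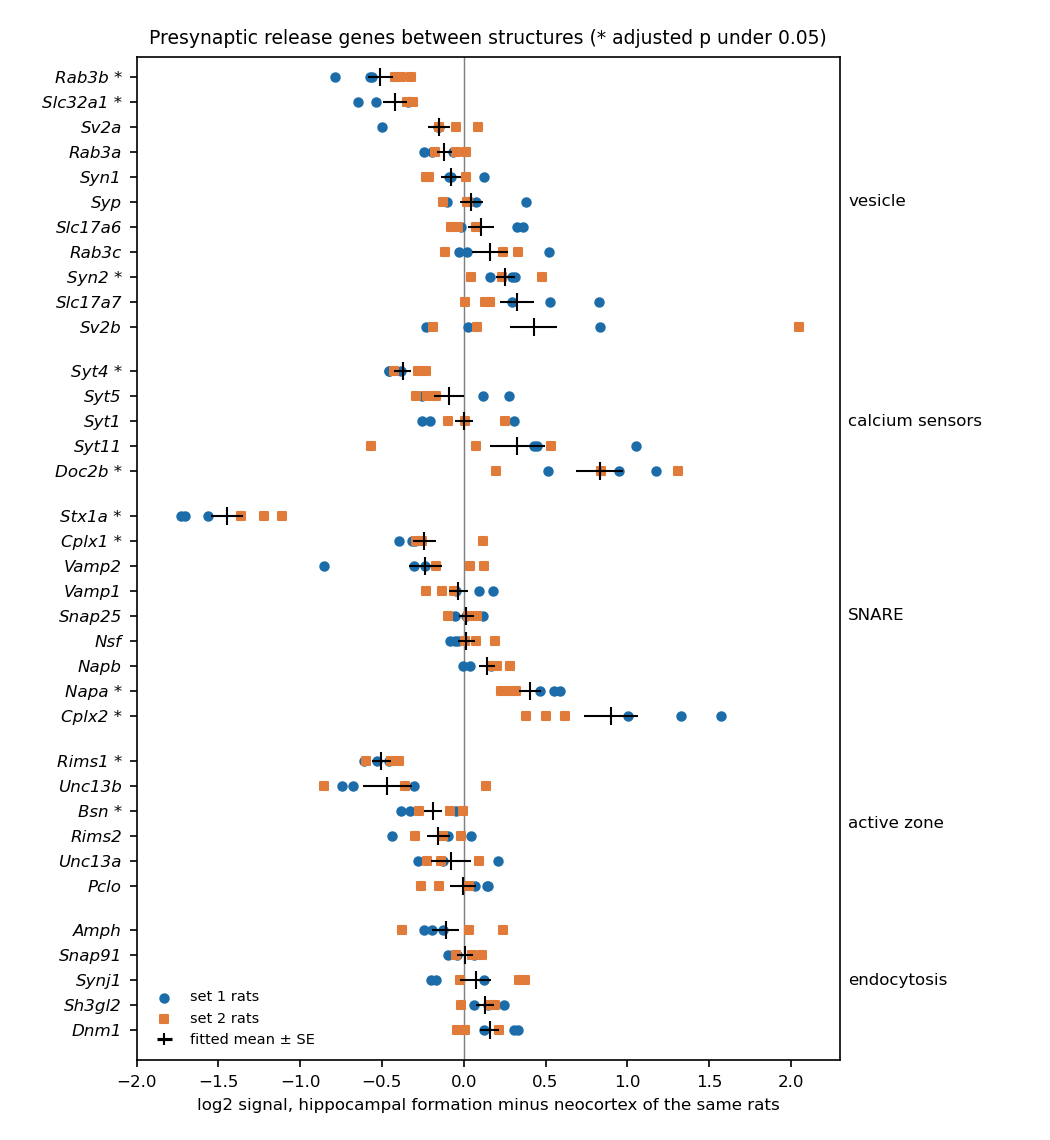
Log2 signal of the hippocampal formation minus that of the neocortex of the same rats (x axis) for the 36 tested genes (y axis), grouped by step, with 3 points for set 1 (circles), 3 for set 2 (squares) and the fitted mean ± SE as a cross. Stx1a lies between -1.73 and -1.11 in all 6 pairs of pools, Cplx2 and Doc2b lie above 0 in all 6, and Snap25, Syt1, Nsf, Snap91 and Pclo centre near 0.

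The SNARE genes held the largest differences in both directions. Stx1a (probe set 1387360_at), syntaxin 1A of the plasma membrane, had hippocampal signals of 169.8, 204 and 290.5 and neocortical signals of 536, 601 and 628 (lowest, median and highest of 6 pools). Every hippocampal pool lay below every neocortical pool. The gene was 2.73-fold lower in the hippocampal formation (log2 difference -1.45, SE 0.097, adjusted p = 0.000168), with -1.67 in the rats of set 1 and -1.23 in those of set 2. The other probe set of Stx1a gave the same direction (log2 difference -1.57, SE 0.14, adjusted p = 0.00045).

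Cplx2 (probe set 1368584_a_at) and Cplx1 (1398357_at), the complexins that bind the assembled SNARE complex, were called in opposite directions. Cplx2 signals were 192, 279 and 392 in the hippocampal formation and 104, 159.9 and 182 in the neocortex, with no overlap. It was 1.87-fold higher (log2 difference 0.90, SE 0.16, adjusted p = 0.0102), and the size differed between the sets, 1.30 in the rats of set 1 and 0.50 in those of set 2. The 2 arrays of a set 1 pool differed for Cplx2 by up to 1.2 on the log2 scale (median 0.37). Each set 2 pool had 1 array. Cplx1 signals were 1294, 1388 and 1601 against 1477, 1691 and 1825, and the ranges overlapped. It was lower by a small amount (log2 difference -0.24, SE 0.069, adjusted p = 0.0499), with -0.34 in the rats of set 1 and -0.14 in those of set 2. Its other probe set was also called lower (log2 difference -0.39, SE 0.078, adjusted p = 0.0142). The Cplx1 call held in 1 of 6 fits that each left out the rats of 1 set and state, with an adjusted p of up to 0.156 without the recovery rats of set 1.

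Napa (probe set 1398782_at) codes for alpha-SNAP, the adaptor that brings NSF to the spent SNARE complex. Its hippocampal signals were 897, 1030.3 and 1162 and its neocortical signals 765, 776 and 801. All hippocampal pools were above all neocortical ones (log2 difference 0.41, SE 0.066, adjusted p = 0.0066), by 0.53 in the rats of set 1 and 0.28 in those of set 2. Napb, the brain form of the adaptor, had signals of 1536 to 1675 against 1362 to 1603 and was not called (log2 difference 0.14, SE 0.05, adjusted p = 0.0847). Nsf itself, the ATPase, had signals of 1529 to 1838 against 1606 to 1738 (log2 difference 0.017, SE 0.052, adjusted p = 0.838), and its other probe sets had both signs (-0.045 and 0.024).

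The remaining SNARE proteins were not called. Snap25, the partner of syntaxin on the plasma membrane, had signals of 3576 to 4778 in hippocampal and 3404 to 4484 in neocortical pools (log2 difference 0.015, SE 0.046, adjusted p = 0.84). Vamp2, the main vesicle SNARE of forebrain, had signals of 557 to 976 against 890.5 to 1005 (log2 difference -0.23, SE 0.10, adjusted p = 0.145). Its difference was -0.47 in the rats of set 1 and -0.0019 in those of set 2. With the set block Vamp2 was called (adjusted p = 0.00106), as were 43% of all probe sets. Vamp1 differed by -0.032 (SE 0.061), and its 3 probe sets had both signs (0.049 and -0.32 for the others).

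Of the 6 active zone genes tested, 2 were called lower and 0 higher, against 10.5% and 9.4% of all probe sets. All 6 differences were below 0 (median -0.17), Pclo by -0.0034 only, while 47.2% of all probe sets were above 0. Rims1 (probe set 1369332_a_at), a scaffold that ties Rab3 vesicles to calcium channels, had hippocampal signals of 114, 129 and 151 and neocortical signals of 162, 182 and 228. The pools did not overlap and the gene was 1.42-fold lower (log2 difference -0.50, SE 0.058, adjusted p = 0.00145), by -0.53 in the rats of set 1 and -0.48 in those of set 2. Bsn (probe set 1374192_at), bassoon, had signals of 990.3, 1145 and 1546 against 1083, 1373 and 1658, which overlapped (log2 difference -0.19, SE 0.053, adjusted p = 0.0484). Within each set of rats the bassoon difference was -0.25 in the rats of set 1 and -0.12 in those of set 2. Its call held in 1 of the 6 fits that left out a pair of pools (adjusted p up to 0.186, without the recovery rats of set 1), and its other probe set was not called (log2 difference -0.24, SE 0.11, adjusted p = 0.151). Unc13b (Munc13-2) had dim signals of 26.6 to 50.1 against 41.3 to 52.2 and was not called (log2 difference -0.47, SE 0.15, adjusted p = 0.0664). With the set as a block Unc13b was called (adjusted p = 0.0125), as were 43% of all probe sets. Rims2 (-0.16, SE 0.071), Unc13a (-0.078, SE 0.12) and Pclo (-0.0034, SE 0.078), piccolo, were not called either.

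Among the vesicle genes 1 of 11 tested was higher and 2 were lower (median 0.046), against 9.4% and 10.5% of all probe sets. Rab3b (probe set 1370061_at), a small GTPase of the vesicle surface, had hippocampal signals of 111, 137 and 158 and neocortical signals of 166, 197 and 208. Every hippocampal pool was below every neocortical pool (log2 difference -0.51, SE 0.077, adjusted p = 0.00475), by -0.64 in the rats of set 1 and -0.38 in those of set 2. Rab3a, the most studied member of that family, had signals of 1394 to 1634 against 1437 to 1765 (log2 difference -0.12, SE 0.047, adjusted p = 0.118). Rab3c had dim signals of 30.9 to 40.7 against 28.4 to 33.5 (log2 difference 0.16, SE 0.11, adjusted p = 0.325). So of 3 Rab3 genes 1 passed the test, and the difference between the genes was not tested.

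Slc32a1 (probe set 1387380_at), the transporter that fills vesicles with GABA or glycine, had hippocampal signals of 101, 109 and 113 and neocortical signals of 136, 141 and 159. The pools did not overlap and the gene was lower (log2 difference -0.42, SE 0.073, adjusted p = 0.00833), by -0.51 in the rats of set 1 and -0.33 in those of set 2. The call was lost without the deprived rats of set 1 (adjusted p = 0.0534) and held in the other 5 fits of that kind. Beside it, 3 of 7 GABAergic markers tested were lower and 0 higher, against 10.5% and 9.4% of all probe sets. The 3 were Vip (-1.19), Npy (-0.64) and Pvalb (-0.62). Over the 7 markers the median difference was -0.034 in the rats of set 1 and -0.45 in those of set 2. The sign was the same in both sets for 4 of the 7, against 67.3% of all probe sets. The enzymes that make GABA were not called, Gad1 at -0.085 (SE 0.051) and Gad2 at 0.12 (SE 0.12). The summed signal of the 7 GABAergic markers was 3116 to 3604 in neocortical and 2501 to 2782 in hippocampal pools, and its part in the Slc32a1 result was not tested.

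The glutamate transporters were not called. Slc17a7 (VGLUT1), the transporter of most cortical and hippocampal glutamate terminals, had signals of 688, 855 and 1259 in the hippocampal formation and 632, 707 and 752 in the neocortex (log2 difference 0.33, SE 0.10, adjusted p = 0.0659). Its difference was 0.55 in the rats of set 1 and 0.10 in those of set 2. With the set as a block Slc17a7 was called (adjusted p = 0.000221), as were 43% of all probe sets. Slc17a6 (VGLUT2), which marks thalamic and other subcortical glutamate neurons, had signals of 122 to 141 against 102 to 134 (log2 difference 0.11, SE 0.079, adjusted p = 0.369).

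Syn2 (probe set 1370431_at), a synapsin of the reserve vesicle cluster, had hippocampal signals of 590.3, 607 and 624 against neocortical signals of 448, 500.4 and 592, which overlapped. It was called higher (log2 difference 0.25, SE 0.058, adjusted p = 0.0235), by 0.26 in the rats of set 1 and 0.25 in those of set 2, and its other probe sets were called in the same direction (log2 difference 0.41, SE 0.067, adjusted p = 0.00675, and log2 difference 0.39, SE 0.074, adjusted p = 0.0123). The call of the brightest probe set held in 1 of the 6 fits that left out a pair of pools (adjusted p up to 0.0911, without the deprived rats of set 2). Syn1 was not called (log2 difference -0.077, SE 0.059, adjusted p = 0.379), while its dimmer probe set was called lower (log2 difference -0.26, SE 0.056, adjusted p = 0.0189). Syp, synaptophysin, a common marker of synaptic vesicles, had signals of 811 to 1088 against 836 to 978 (log2 difference 0.046, SE 0.071, adjusted p = 0.671). Sv2a, the vesicle glycoprotein bound by levetiracetam, was not called (log2 difference -0.15, SE 0.067, adjusted p = 0.148), nor was its relative Sv2b (log2 difference 0.43, SE 0.14, adjusted p = 0.0798), whose signals ran from 448 to 1650.3 in hippocampal pools and from 356 to 1882 in neocortical pools.

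Of the 5 synaptotagmin and Doc2 genes tested, Doc2b aside, Syt4 was called lower and the other 3 were not called. Syt4 (probe set 1375877_at), a synaptotagmin induced by activity, had hippocampal signals of 611, 712 and 829 and neocortical signals of 841, 903 and 1025. The pools did not overlap (log2 difference -0.37, SE 0.054, adjusted p = 0.00394), with -0.43 in the rats of set 1 and -0.31 in those of set 2, but the other Syt4 probe set was not called (log2 difference -0.033, SE 0.091, adjusted p = 0.816). Doc2b (probe set 1369479_at), a high-affinity calcium sensor of slow and spontaneous release, had hippocampal signals of 20.5, 28.8 and 36.4 and neocortical signals of 13.9, 14.8 and 19.5. All neocortical Doc2b signals were under the filter level of 19.7 and all hippocampal ones above it, so the gene was kept only through the structure where it is high, and its difference is given as a description with no test (log2 difference 0.83, with 0.88 in the rats of set 1 and 0.78 in those of set 2). Its size also depends on how dim signals are treated, and with 16 added to each signal it was 0.47. Syt1, the main sensor of fast release, had signals of 646 to 867 against 645 to 869 (log2 difference 0.002, SE 0.054, adjusted p = 0.983). Syt5 (-0.09, SE 0.09) and Syt11 (0.33, SE 0.17) were not called.

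None of the 5 endocytosis genes was called between the structures, with 1 of 5 at an unadjusted p under 0.05 (36% of all probe sets). With the set block 2 of 5 were called (Dnm1 and Sh3gl2), against 43% of all probe sets. Dnm1 (probe set 1368292_at), dynamin 1, the GTPase that cuts the vesicle neck, had the smallest p. Its hippocampal signals were 1955, 2166 and 2593 and its neocortical signals 1797, 1989 and 2060.5, which overlapped (log2 difference 0.16, SE 0.059, adjusted p = 0.101). Sh3gl2, endophilin A1, which bends the membrane, had signals of 225 to 311 against 197 to 287 (log2 difference 0.13, SE 0.056, adjusted p = 0.141). Amph, amphiphysin, differed by -0.11 (SE 0.084), and Synj1, the lipid phosphatase synaptojanin, by 0.074 (SE 0.094). Snap91, the clathrin adaptor AP180, differed by 0.0066 (SE 0.048).

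**Figure D2:**
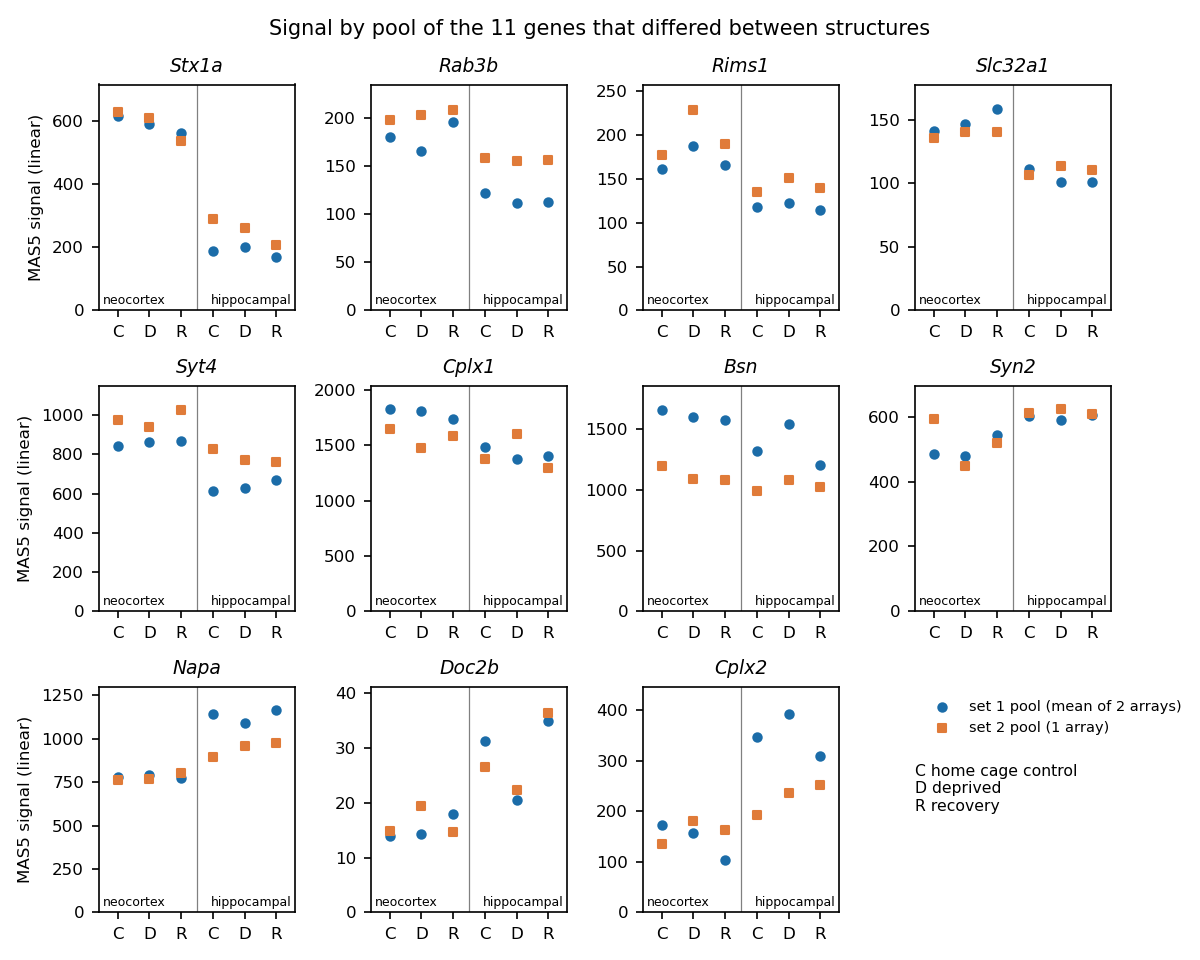
MAS5 signal (linear y axis from 0) of the 11 called genes in each pool, with control (C), deprived (D) and recovery (R) pools of the neocortex on the left and of the hippocampal formation on the right of each panel, set 1 as circles and set 2 as squares. Stx1a separates into 536 to 628 in neocortical and 170 to 290.5 in hippocampal pools, and the squares of Cplx2 and Napa sit between the circles of the hippocampal formation and the neocortical points.

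Other genes of the same steps were counted in the same way. Of 111 listed, 91 were tested and 27 were called between the structures, 18 higher (Ppfia4 among them) and 9 lower (median 0.0094), against the 19.9% of all probe sets. Without Ppfia4, which was dim in neocortex, 26 of 90 were called, against 19.5% on the same footing. Of the fusion genes, Cplx3, a complexin known from retinal ribbon synapses, was lower (log2 difference -1.31, SE 0.20, adjusted p = 0.00503), as was Prrt2, which binds Snap25 (-0.43, SE 0.064, adjusted p = 0.00456). Cplx3 and Cplx1 were thus lower and Cplx2 higher in the hippocampal formation. Among 19 further active zone genes 5 were higher and 5 lower, led by Ppfia4, a liprin scaffold kept by the filter only through its hippocampal signals (1.08, no test), and Cacnb4, a calcium channel subunit (-0.76, SE 0.088, adjusted p = 0.00151). Among 20 vesicle genes 4 were higher and 1 lower, led by Synpr, synaptoporin (-0.48, adjusted p = 0.0186), and Rab27b (0.39, adjusted p = 0.032). Among 28 endocytosis genes 4 were higher and 1 lower, led by Fcho1 (-0.55, adjusted p = 0.00744) and Epn2 (0.37, adjusted p = 0.00368), which both act in early clathrin coats. Of 4 further synaptotagmins, Syt3 was higher (0.32, adjusted p = 0.0373).

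Between sleep states no member was called by limma in any of the 6 comparisons, and neither was any other probe set (0% of 18625 in each), so the sleep states are described by their values. At an unadjusted p under 0.05 there were 0, 1 and 0 members in neocortex for deprived against control, recovery against control and recovery against deprived, and 0, 0 and 2 in the hippocampal formation. Of all probe sets 1.11%, 1.12% and 0.907% in neocortex and 1.1%, 1.51% and 1.62% in the hippocampal formation did so. Doc2b, 1 of the 2 members, was kept only through its hippocampal signals, so its p is no support. The members' median log2 differences were -0.015, 0.0068 and 0.028 in neocortex and -0.068, -0.046 and 0.00083 in the hippocampal formation, in the same order. The hippocampal medians differed in sign between the sets. They were -0.12 in set 1 and 0.039 in set 2 for deprived against control, and -0.12 and 0.017 for recovery against control. The medians over all probe sets in these 6 comparisons lay between -0.0061 and 0.0087. Groups of 2 pools did not overlap for 8 of 36 members in deprived against control neocortex (24.5% of all probe sets), 7 in recovery against control (24%) and 9 in recovery against deprived (23.4%). In the hippocampal formation they did not overlap for 6 (19.3%), 8 (19.9%) and 7 (23.2%), again in that order. These counts lie near the background. Of the 36 members, 24 stayed within 0.25 on the log2 scale in all 6 comparisons, as did 61.2% of all probe sets. Each member named in the sleep state results has an adjusted p of 1 there, and its pools are given as set 1, then set 2.

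**Figure D3:**
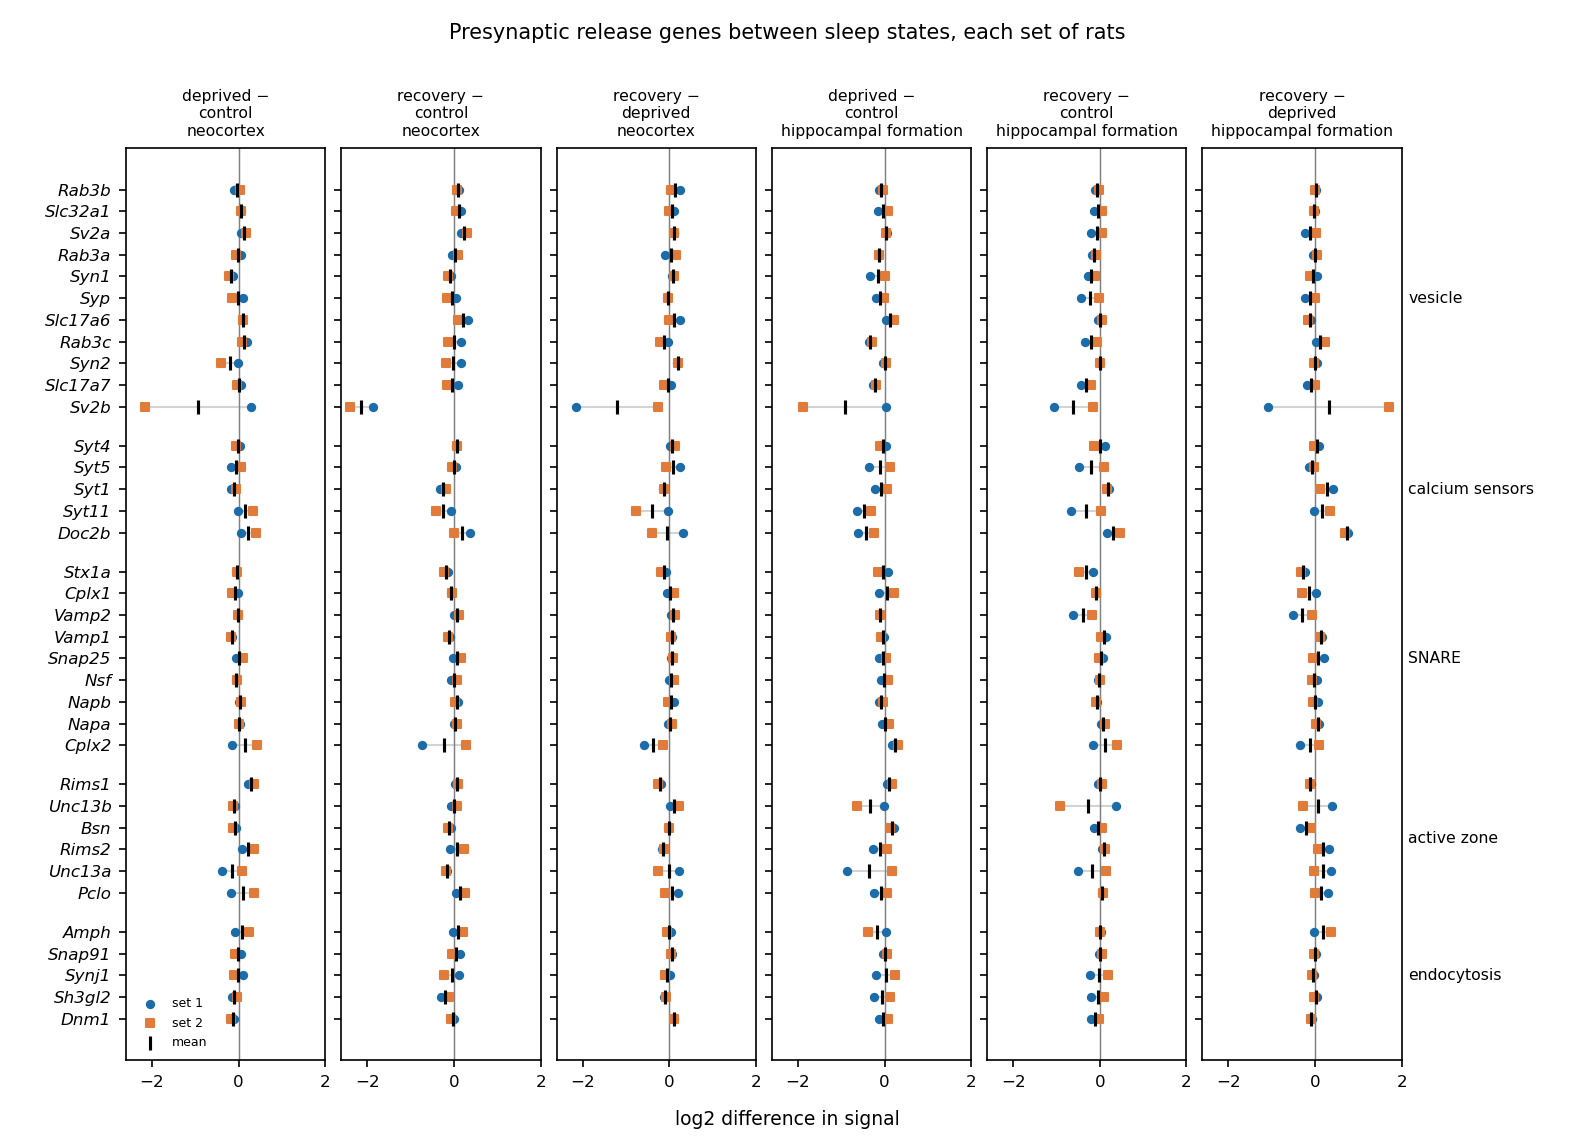
Log2 difference in signal (x axis) of the 36 tested genes between sleep states, in neocortex (left 3 panels) and hippocampal formation (right 3 panels), for set 1 (circles), set 2 (squares) and their mean (bars). Most genes lie close to 0 in every panel, and Sv2b lies farthest out, at -2.40 in set 2 and -1.86 in set 1 for recovery against control in neocortex.

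Of the vesicle genes, Sv2b had the widest range in neocortex, with 1476 and 1882 in the control pools, 1808 and 423 in the deprived pools and 406 and 356 in the recovery pools. Recovery pools were below both control pools (-2.13 (SE 0.67)) and both deprived pools (-1.20 (SE 0.67)), while the deprived pools lay at opposite ends. Hippocampal Sv2b signals were 1503 and 1650.3 in the control pools, 1538 and 448 in the deprived pools and 721 and 1472 in the recovery pools, and recovery differed from control by -0.61 (SE 0.67). The low pools were thus spread over different states and sets. The 2 arrays of a set 1 pool differed by at most 0.37 on the log2 scale, while each set 2 pool, the 3 low ones included, had a single array, so its technical spread was not measured.

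The chosen Sv2b probe set (1369628_at) and the other one kept (1369627_at) did not behave alike. The signal of the chosen set ran from 356 to 1882 over the 12 pools, a 5.29-fold range, and that of the other from 494 to 807, a 1.63-fold range. In recovery against control neocortex the other probe set differed by -0.24 (SE 0.21), against -2.13 for the chosen one. Which part of the transcript each probe set reads was not examined here.

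**Figure D4:**
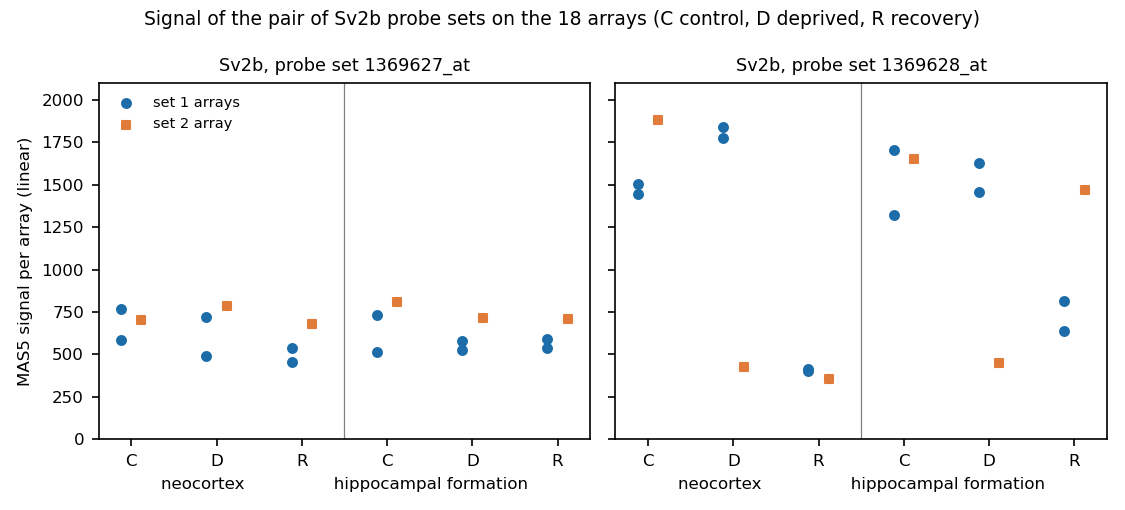
MAS5 signal (linear y axis from 0) of the pair of kept Sv2b probe sets on each of the 18 arrays, by structure and state (C control, D deprived, R recovery), with set 1 arrays as circles and set 2 arrays as squares. The probe set on the right is between 356 and 448 on the recovery neocortex arrays and the deprived arrays of set 2 and at 1324 or more on every control array, while the one on the left stays between 456 and 807.

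Syn1 in neocortex gave 1149 and 1161 in the control pools, 1054 and 990.4 in the deprived pools and 1097 and 1063 in the recovery pools. Both deprived pools were below both control pools (-0.18 (SE 0.12)) and below both recovery pools (recovery minus deprived 0.08 (SE 0.12)). Syn2 in neocortex gave 483 and 592 in the control pools, 480.1 and 448 in the deprived pools and 542 and 518 in the recovery pools, so its deprived pools were also the lowest (-0.21 (SE 0.11) against control, and 0.19 (SE 0.11) for recovery against deprived). The Syn2 difference from control was -0.01 in the rats of set 1 and -0.40 in those of set 2, and the probe sets of Syn2 had both signs in both comparisons. Rab3c gave dim neocortical signals, 28.4 and 31.9 in the control pools, 32.3 and 33.5 in the deprived pools and 31.6 and 28.9 in the recovery pools, with deprived above control (0.13 (SE 0.17)). In the hippocampal formation Rab3c gave 40.7 and 37.7 in the control pools, 31.7 and 30.9 in the deprived pools and 32.0 and 36.3 in the recovery pools, with both deprived pools below both control pools (-0.32 (SE 0.17)) and both recovery pools below them as well (-0.20 (SE 0.17)).

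Slc17a6 gave neocortical signals of 102 and 125 in the control pools, 108 and 134 in the deprived pools and 129 and 133 in the recovery pools. Both recovery pools were above both control pools (0.21 (SE 0.14)). Its hippocampal signals were 132 and 122 in the control pools, 136 and 141 in the deprived pools and 128 and 126 in the recovery pools, with deprived above control (0.13 (SE 0.14)) and recovery below deprived (-0.13 (SE 0.14)). Rab3a in the hippocampal formation gave 1634 and 1519 in the control pools, 1493 and 1394 in the deprived pools and 1442 and 1427 in the recovery pools, and its deprived pools were below its control pools (-0.13 (SE 0.12)). Syp there gave 1088 and 896 in the control pools, 949.5 and 891 in the deprived pools and 811 and 884 in the recovery pools. Both recovery pools of synaptophysin were below the control pools (-0.22 (SE 0.12)) and the deprived pools (-0.12 (SE 0.12)), but by -0.42 in the rats of set 1 and -0.019 in those of set 2 for the first of these. Of the other transporters and vesicle proteins, the largest state differences were -0.32 for Slc17a7 (recovery minus control, hippocampal formation), 0.23 for Sv2a and 0.11 for Slc32a1 (recovery minus control, neocortex), and 0.14 for Rab3b (recovery minus deprived, neocortex).

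Of the calcium sensors, Doc2b in the hippocampal formation gave 31.3 and 26.5 in the control pools, 20.5 and 22.4 in the deprived pools and 34.9 and 36.4 in the recovery pools. Both deprived pools were below both control pools (-0.43 (SE 0.23)), and both recovery pools were above the control pools (0.31 (SE 0.23)) and the deprived pools (0.73 (SE 0.23)). The last difference was 0.77 in the rats of set 1 and 0.70 in those of set 2 and was among the 2 hippocampal members at an unadjusted p under 0.05. Doc2b was kept by the filter only through its hippocampal signals, which were highest in these recovery pools, so that p is no support. The neocortical Doc2b signals were 13.9 and 14.8 in the control pools, 14.4 and 19.5 in the deprived pools and 18.1 and 14.7 in the recovery pools, which overlapped between control and deprived (0.22 (SE 0.23)). The Doc2b signals of all 12 pools lay between 13.9 and 36.4, close to the filter level of 19.7. For Doc2b the 2 arrays of a set 1 pool differed by up to 0.96 on the log2 scale.

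Syt1 was the other member at an unadjusted p under 0.05 for recovery against deprived hippocampal formation (0.27 (SE 0.12)). Its hippocampal signals were 753 and 681 in the control pools, 646 and 704 in the deprived pools and 867 and 768 in the recovery pools, with recovery above deprived and above control (0.19 (SE 0.12)). Its neocortical signals were 869 and 728 in the control pools, 769.9 and 699 in the deprived pools and 701 and 645 in the recovery pools, with recovery below control (-0.24 (SE 0.12)). The sign of recovery against control was thus opposite in the structures in both sets of rats. Syt11 in neocortex gave 69.8 and 72.7 in the control pools, 68.8 and 91.8 in the deprived pools and 67.0 and 54.2 in the recovery pools, with recovery below control (-0.24 (SE 0.30)) and below deprived (-0.40 (SE 0.30)), mostly from set 2. At their brightest probe sets Syt4 and Syt5 differed by at most 0.20 in size (Syt5, recovery minus control in the hippocampal formation). The other kept Syt4 probe set differed more in neocortex. It gave -0.31 (SE 0.19) for recovery minus control and -0.30 (SE 0.19) for recovery minus deprived, and was not called.

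Among SNARE genes, Stx1a, the gene that differed most between structures, gave 615 and 628 in the control pools, 591 and 611 in the deprived pools and 563 and 536 in the recovery pools in neocortex, with recovery below deprived (-0.13 (SE 0.20)). Vamp1 gave 592 and 701 in the control pools, 528 and 624 in the deprived pools and 556 and 639 in the recovery pools, with overlapping control and deprived pools (-0.16 (SE 0.12)) and overlapping control and recovery pools (-0.11 (SE 0.12)). Within each set of rats Vamp1 was nevertheless lower than control in both states, by -0.16 in the rats of set 1 and -0.17 in those of set 2 for deprivation. Cplx2 in neocortex gave 173 and 136 in the control pools, 156 and 182 in the deprived pools and 104 and 164 in the recovery pools, with overlap between deprived and recovery (-0.37 (SE 0.33)). In the hippocampal formation Vamp2 gave 849.6 and 976 in the control pools, 796 and 914 in the deprived pools and 557 and 866 in the recovery pools. Its recovery pool of set 1 was the lowest (-0.39 (SE 0.18) against control and -0.30 (SE 0.18) against deprived), and the groups overlapped. Vamp1 there gave 572 and 598 in the control pools, 564 and 569.8 in the deprived pools and 629 and 613 in the recovery pools, with recovery above control (0.086 (SE 0.12)), the sign opposite to neocortex. Napb there gave 1675 and 1655 in the control pools, 1536 and 1626 in the deprived pools and 1598 and 1565 in the recovery pools, with deprived below control (-0.075 (SE 0.10)). At the brightest probe sets the largest state difference of Stx1a in the hippocampal formation was -0.31 (SE 0.20) (recovery minus control). That of Cplx1 was -0.14 (recovery minus deprived) and that of Napa 0.073 (recovery minus control). The other kept probe sets there gave -0.42 (SE 0.22) for Stx1a (recovery minus control) and -0.20 (SE 0.19) for Cplx1 (deprived minus control). As means of both sets, Snap25 and Nsf differed by no more than 0.079 in any comparison at their brightest probe sets. Other Nsf probe sets gave -0.11 (recovery minus control, neocortex) and 0.12 (recovery minus deprived, hippocampal formation).

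Among active zone genes, Rims1 in neocortex gave 162 and 177 in the control pools, 188 and 228 in the deprived pools and 165 and 189.8 in the recovery pools. Both deprived pools were above both control pools (0.29 (SE 0.16)), by 0.21 in the rats of set 1 and 0.36 in those of set 2, and deprived and recovery pools overlapped (recovery minus deprived -0.22 (SE 0.16)). Rims2, its close relative, gave 86.3 and 87.1 in the control pools, 90.6 and 111 in the deprived pools and 81.3 and 103 in the recovery pools, with deprived again above control (0.21 (SE 0.18)). In the hippocampal formation Rims2 gave 80.8 and 86.2 in the control pools, 67.0 and 90.0 in the deprived pools and 83.7 and 93.9 in the recovery pools, with overlap between deprived and recovery (0.19 (SE 0.18)). Pclo gave neocortical signals of 121 and 108 in the control pools, 107 and 138 in the deprived pools and 124 and 128 in the recovery pools, with recovery above control (0.15 (SE 0.16)), and hippocampal signals of 134 and 110.2 in the control pools, 113 and 116 in the deprived pools and 138 and 116 in the recovery pools, with recovery above deprived (0.15 (SE 0.16)). Unc13b gave hippocampal signals of 31.2 and 50.1 in the control pools, 30.8 and 32.2 in the deprived pools and 40.4 and 26.6 in the recovery pools, which overlapped between states (-0.33 (SE 0.26) for deprived minus control and -0.27 (SE 0.26) for recovery minus control). The largest state difference of Unc13a was -0.35 (SE 0.33) (deprived minus control, hippocampal formation), with -0.87 in the rats of set 1 and 0.16 in those of set 2. That of Bsn was -0.22 (SE 0.27) at its brightest probe set (recovery minus deprived, hippocampal formation). The other kept Bsn probe set differed by -0.36 (SE 0.19) in recovery minus deprived neocortex and was not called. The sets disagreed in sign for Unc13b after recovery, with 0.37 in the rats of set 1 and -0.91 in those of set 2.

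Among endocytosis genes, Dnm1 in neocortex gave 2056 and 2036 in the control pools, 1919 and 1797 in the deprived pools and 2060.5 and 1942 in the recovery pools. Its deprived pools were below its control pools (-0.14 (SE 0.14)) and its recovery pools above its deprived pools (0.11 (SE 0.14)). In the hippocampal formation it gave 2593 and 1979 in the control pools, 2375 and 2090.2 in the deprived pools and 2245 and 1955 in the recovery pools, where control and recovery overlapped (-0.11 (SE 0.14)). Sh3gl2 in neocortex gave 241 and 287 in the control pools, 216 and 279 in the deprived pools and 197 and 266 in the recovery pools, with overlap between control and recovery (-0.20 (SE 0.22)). Amph in the hippocampal formation gave 179.9 and 205 in the control pools, 185 and 158 in the deprived pools and 182 and 204 in the recovery pools. Its deprived pool of set 2 was the lowest (-0.17 (SE 0.14) against control, and 0.17 (SE 0.14) for recovery against deprived), and set 1 differed by 0.04 and -0.023 in those comparisons. As means of both sets, Synj1 and Snap91 differed by no more than 0.06 in any comparison. The sets of Synj1 went opposite ways from control in the hippocampal formation. It gave 965 and 977 in the control pools there, 841 and 1156.5 in the deprived pools and 828 and 1105 in the recovery pools.

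Genes with several kept probe sets did not always agree in sign between states. Of 12 such members, both signs occurred for Bsn, Cplx1, Sh3gl2, Slc17a7, Syn2 and Vamp1 in deprived minus control neocortex, and for Rab3a, Slc17a7, Syt4 and Vamp1 in recovery minus control. They occurred for Cplx1, Nsf, Rab3a, Syn1, Syn2, Syt4 and Vamp1 in recovery minus deprived neocortex. In the hippocampal formation they occurred for Cplx1, Sh3gl2, Syn2 and Vamp1 in deprived minus control, for Bsn, Nsf and Syn2 in recovery minus control, and for Cplx1, Nsf, Rab3a, Sh3gl2, Slc17a7 and Syn2 in recovery minus deprived. Between the structures both signs occurred for 2 of the 12, Nsf and Vamp1.

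Whether the state difference itself depended on the structure was tested on the paired differences of the same rats, and no member or other probe set was called (0% of 18625 in each of 3 comparisons, limma). At an unadjusted p under 0.05 there were 0, 2 and 2 members, against 1.14%, 1.3% and 1.6% of all probe sets. Sv2b and Syt1 were those in both recovery comparisons. For recovery against control the hippocampal minus neocortical difference changed by 1.52 (SE 0.35) for Sv2b and by 0.43 (SE 0.13) for Syt1, and for recovery against deprived by 1.51 (SE 0.35) and 0.40 (SE 0.13). The Sv2b values were 0.80 in the rats of set 1 and 2.24 in those of set 2 against control, and 1.06 in the rats of set 1 and 1.97 in those of set 2 against deprived, while its other kept probe set gave 0.087 and 0.25 in these comparisons. The Syt1 values were 0.52 in the rats of set 1 and 0.35 in those of set 2 against control, and 0.56 in the rats of set 1 and 0.24 in those of set 2 against deprived. For deprived against control the smallest p of the steps belonged to Rab3c (-0.45 (SE 0.27)), Doc2b (-0.65 (SE 0.35)), Napb (-0.1 (SE 0.12)), Bsn (0.28 (SE 0.13)) and Amph (-0.25 (SE 0.21)). The Doc2b value is a description, since the gene was kept only through its hippocampal signals. The Bsn value was 0.28 in the rats of set 1 and 0.27 in those of set 2, while its other kept probe set gave 0.0066, with -0.096 and 0.11 in the sets. Vamp2 (-0.45 (SE 0.25)), Unc13b (-0.28 (SE 0.36)) and Sh3gl2 (0.15 (SE 0.14)) led their steps for recovery against control, as did Vamp2 (-0.38 (SE 0.25)), Rims2 (0.32 (SE 0.17)) and Dnm1 (-0.20 (SE 0.14)) for recovery against deprived. Both signs occurred among the probe sets of Cplx1, Nsf, Stx1a, Sv2b, Syn1, Syn2 and Vamp1 for deprived against control, of Nsf, Syn2 and Syt4 for recovery against control, and of Bsn, Cplx1, Nsf, Rab3a, Slc17a7, Syn1, Syn2 and Syt4 for recovery against deprived.

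The other genes of these steps gave the same count: 0 of 91 were called between states in either structure, with 0 to 2 at an unadjusted p under 0.05 in a comparison. Their median differences ran from -0.037 (recovery minus control, neocortex) to 0.0024 (recovery minus control, hippocampal formation).

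The members' signals varied more between the sets of rats than between sleep states within a set. The median absolute log2 difference of a member was 0.12 between technical arrays of a pool, 0.18 between set 2 and set 1, 0.10 between states within a set and 0.16 between the structures. Over all probe sets the same medians were 0.16, 0.20, 0.12 and 0.16. The values between structures are of fitted means over 6 pairs of pools, and the others are of differences between single arrays or pools. The sizes between structures are therefore not comparable with the others. Set 2 differed from set 1 in the same direction in all 3 states for 22 of 36 members in neocortex and 19 of 36 in the hippocampal formation, against 52.8% and 58.2% of all probe sets. Bsn was lower in set 2 by a mean log2 difference of -0.52 in neocortex and -0.39 in the hippocampal formation, and Snap25 by -0.28 and -0.31. Sh3gl2 was higher in set 2, by 0.35 and 0.31. These examples were chosen after their values were seen. What distinguishes the sets is not stated in the labels beyond their being different rats.

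The 4 members under the filter gave mean log2 signals of 2.25 (Syn3), 3.97 (Syngr1), 2.22 (Sv2c) and 3.23 (Syt7), against a filter level of 4.30. Their signals lay between 1.05 and 39.1 over the 12 pools. No difference is given for them.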

How the data were processed

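The authors deposited linear intensities of probe sets, computed with MAS5 per the submitters' processing notes; its version is not given in the sources used here. Each array's mean after trimming 2% at each end was 100, so the arrays were scaled alike. Signals were raised to a floor of 1 and log2-transformed, arrays of a pool were averaged, 57 control probe sets and the dimmest 40% were left out, and 18625 of 31099 remained. Names came from the platform annotation (20832 probe sets with 1 symbol, 436 with several, 9831 with none).

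Tests used limma 3.58.1 in R 4.3.3 (lmFit, then eBayes with its trend option), on means of all 6 groups for sleep states and on hippocampal minus neocortical differences of the same 6 animal pools for structures, with Benjamini-Hochberg adjustment over all probe sets and a threshold of 0.05. With 2 pools per group all groups share an estimate of the spread, and p-values rest on the spread between pools of 6 rats. These fits had no term for the set of rats, so that spread includes any difference between the sets. Same-numbered pools of different states deviated together within a structure (correlations 0.54 to 0.68). The p-values for sleep states are therefore not a measure of random spread between pools alone. The structures are paired because each pool's 6 rats gave both. Figures used matplotlib 3.10.9.

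Up to 4 called members of each step, or the member with the smallest p, are given by pool, with the 3 largest rises and falls among members whose pools do not overlap. Up to 2 called other genes of a step and 2 markers of a list are named. Members and lists were chosen with earlier results of these data known. Recovery is taken from the sample labels (72 h plus 6 h); the treatment protocol could mean 6 h following 78 h. Alternatives were the set as a block, animals or pools as random blocks, quantile normalization, other floors, no filter, all probe sets of a gene, 1 technical array, no state term and pools left out.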

Additional observations from a re-analysis of the deposited data

Results flagged for a closer look

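The hippocampal minus neocortical log2 difference of Cplx1 in the deprived rats of set 2 was 0.12, while the other 5 pairs of pools lay between -0.40 and -0.26. This pair lay apart from the rest by 0.725 of the whole range of the 6 values, more than Dixon's critical value. It was the only 1 of 36 members examined in this way, and chance alone sets apart about 1 in 20 such groups.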

How the results depend on the processing

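The number of members called between the structures, 11, was 21 with the replicate block and 19 without the hippocampal pools of set 2 (3 pairs, no state term), both including the 11; without each pair of pools in turn it ran from 7 (without the deprived rats of set 1) to 12. It was 9 with no filter (Cplx1 and Bsn lost), 10 with technical array 1 only (Bsn lost), 10 without probe sets under the filter level in 1 structure (Doc2b left out) and 11 to 14 otherwise. State comparisons gave 0 called members in every alternative, and interactions without the hippocampal pools of set 2 could not be fitted. Same-numbered pools of different states deviated together (correlations 0.54 to 0.68 within a structure, 0.18 to 0.39 between), a hint from the data, since the labels give states only a shared number; the block changed no state call of a member, while over all probe sets it called 2 for deprived minus control and 1 for recovery minus deprived in neocortex and 2 for the structure difference in recovery minus deprived, against 0 without it. These uncalled differences turned sign, and the cause was not tested: Doc2b deprived minus control in neocortex (-0.13 with technical array 1 only), Syn1 recovery minus deprived in neocortex (-0.0036 as a mean of probe sets), and, without the hippocampal pools of set 2, Amph deprived minus control (0.040), Amph recovery minus deprived (-0.023) and Unc13b recovery minus control (0.37). Leaving out 1 pool, ranges that crossed 0 were Vamp1 -0.23 to 0.010 and Sh3gl2 -0.41 to 0.020 (recovery minus control, neocortex), and in the hippocampal formation Unc13b -0.67 to 0.013 (deprived minus control) and -0.61 to 0.070 (recovery minus control), Dnm1 -0.31 to 0.083 (recovery minus control), Rims2 -0.022 to 0.40 and Vamp2 -0.62 to 0.021 (recovery minus deprived), and Unc13b -0.72 to 0.16 for the structure difference in recovery minus control. Arrays limit precision by their number, 2 pools per group, and signals near the filter level (Doc2b, Unc13a, Rab3c) least support a size.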
